A study of Mus musculus with 2 samples.

Results

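Cycling cells, picked by 5 genes that peak in the G2 and M phases of the cell cycle, made up 120 of 1727 cells in 2 single-cell RNA libraries of Tc17-polarised mouse CD8 T cells. The choice used a score: the unique molecular identifiers (UMIs, counted transcripts) of Mki67, Top2a, Cdk1, Birc5 and Ube2c in a cell, per 10000 UMIs of that cell, with a score of 5 or more. The score was read only in barcodes that showed 500 genes or more and whose mitochondrial UMIs did not exceed 10%. Cells with a score under 1 (857 and 625 in the 2 libraries) served as the low-scoring cells for comparison, and 82 and 43 cells lay between. CD8 T cells had been taken from mesenteric lymph nodes by affinity beads, cultured with a commercial Th17 polarising kit, and stimulated for 3 h with 100 ng/ml PMA and 10 µg/ml ionomycin, a pair of agents that stands in for T-cell receptor signalling. The series concerns the part of NFATc1 in CD8 T cells that make IL-17 in contact dermatitis. The control library came from wild-type C57/B6N mice. The other came from mice with the same strain label, described as Nfatc1-deficient in T cells through Nfatc1 f/f and Cd4-Cre, a Cre that acts in developing thymocytes and so deletes in CD4 and CD8 T cells alike. The sources used here do not give the number or age of the mice, whether animals were pooled, or which exons were flanked by lox sites.

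Nfatc1 transcripts ran against the genotype labels also among the cycling cells. Nfatc1, which encodes a calcium-regulated transcription factor, stood at 24.9 CPM (UMIs of the gene scaled to a total of 1000000) in the cycling cells of the library labelled wild type and at 120.5 CPM in those of the library labelled deficient. The deficient-labelled level was 4.84-fold higher (95% counting interval 3.85 to 6.13). Because the position of the deletion is unknown, 3' transcript counts do not check it. The libraries are therefore called wild-type-labelled and deficient-labelled, and each direction between them rests on those labels. With 1 library per genotype and cells that are not replicates, no test was run and no p-value is given. Intervals are 95% and cover counting error only, neither the spread between cells nor that between mice or cultures.

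In proliferating cells, G2 follows DNA replication, and mitosis begins when the kinase Cdk1 with its cyclin partners becomes active. Top2a untangles the copied chromatids, Mki67 coats mitotic chromosomes, Birc5 (survivin) belongs to the chromosomal passenger complex at centromeres, and Ube2c is a ubiquitin-conjugating enzyme of the anaphase-promoting complex, which ends mitosis by marking cyclins for destruction. Activated CD8 T cells divide rapidly, and Tc17 cells are the CD8 cells that make interleukin-17.

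The cycling cells were 79 of 1018 cells (7.76%, exact binomial interval 6.19 to 9.58) in the wild-type-labelled library and 41 of 709 (5.78%, 4.18 to 7.76) in the deficient-labelled library, and these intervals overlap. Their scores had medians of 13.4 and 11.9 per 10000 UMIs and reached 36.2 and 26.7. Just inside the threshold, 2 and 6 cycling cells scored under 6, the lowest at 5.23 and 5.03. Just outside it, the highest scores were 4.95 and 3.98. Between scores of 4 and 5 lay 5 wild-type-labelled and 0 deficient-labelled cells. The libraries shared 0 barcodes.

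**Figure D1:**
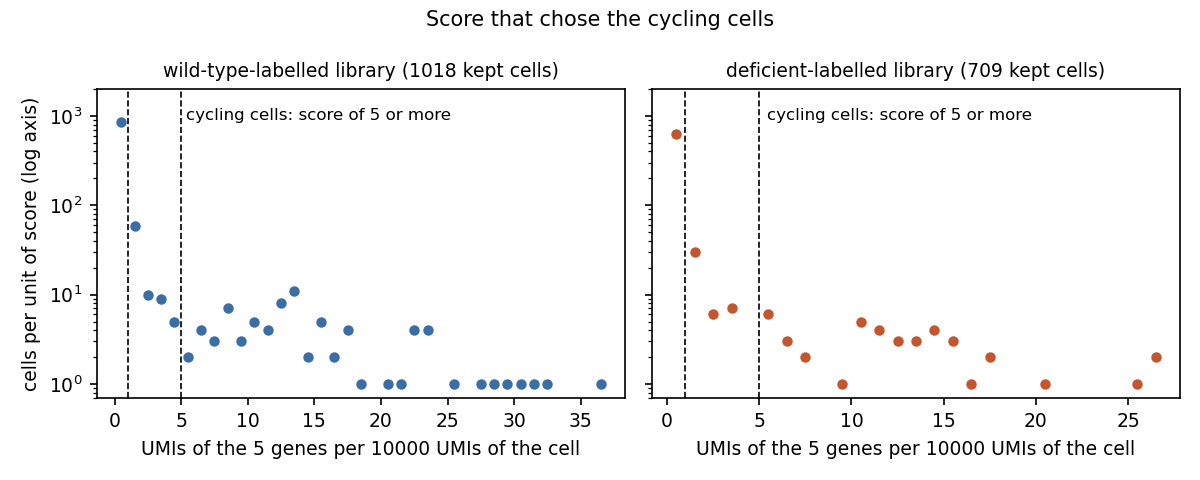
Number of kept cells (log axis) against the score, in UMIs of the 5 genes per 10000 UMIs of the cell, in bins of width 1, for the 1018 wild-type-labelled and 709 deficient-labelled cells. Dashed lines mark scores of 1 and 5; most cells lie under 1, and the cycling cells spread from 5.23 to 36.2 in the wild-type-labelled library and from 5.03 to 26.7 in the other.

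The cycling cells were larger libraries than the rest. A cycling cell held a median of 47589 UMIs and 6071 genes in the wild-type-labelled library, against 20320 UMIs and 3839 genes in a low-scoring cell. In the deficient-labelled library the medians were 54752 UMIs and 6497 genes against 21214 and 3937. Together the cycling cells held 16.9% and 12.9% of all UMIs of their libraries, 4139171 and 2315748 UMIs in all. Mitochondrial transcripts took similar shares in both kinds of cell (medians of 2.68% against 3.21%, and 2.75% against 2.67%). The Scrublet program called 0 of 79 and 1 of 41 cycling cells doublets, beside 5 low-scoring cells in each library. Its calls covered 0.49% and 0.85% of all kept cells, at an expected rate of 5%. Levels below are CPM of UMIs summed over the cells of a group, so they are shares of a cell's transcripts and not transcripts per cell. Because depth moved with the score, ratios are also given against deep low-scoring cells, those with at least as many UMIs as the lower quartile of the cycling cells of their library (51 and 28 cells, with medians of 42348 and 51464 UMIs).

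The 5 choosing genes were present together in most cycling cells, which is a description of how the cells were picked. All 5 had a UMI in 72 of 79 cells (91.1%) and in 34 of 41 (82.9%). Top2a stood at 445 CPM in the wild-type-labelled cycling cells against 8.54 in low-scoring cells, and at 369.6 against 6.30 in the deficient-labelled library. Ube2c stood at 548 against 4.98 CPM and at 315 against 5.05. Ube2c gave 35.2% of the choosing UMIs in the wild-type-labelled cells and 24.4% in the deficient-labelled ones, with medians of 24 and 7 UMIs per cycling cell. Mki67 gave 12.9% and 18.9%, with medians of 8 and 11. The mixture of the 5 transcripts therefore differed between the libraries. A few cycling cells rested on little: 2 and 4 cells held fewer than 10 UMIs of the 5 genes together, and the smallest cells had 992 and 750 UMIs.

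Other G2 and M transcripts were high in the same cells, which is again a description. Of 47 measured genes of a G2/M list of 56 (the 5 choosing genes included, which the score itself fixed as high), 45 were at least 2-fold higher in the wild-type-labelled cycling cells and 43 in the deficient-labelled ones, and 0 were lower. The medians of this list were 4.50 and 4.27 on the log2(CPM + 1) scale. Cyclin B1 (Ccnb1), the partner of Cdk1 at mitotic entry, stood at 94.9 against 3.78 CPM and at 76.0 against 1.80. The mitotic kinase Plk1 stood at 46.1 against 0.548 CPM and at 32.4 against 0.554. Cdc20, the activator of the anaphase-promoting complex, stood at 111 against 3.07 CPM and at 90.3 against 3.74. The kinetochore motor Cenpe stood at 97.4 against 1.53 CPM and at 85.1 against 1.38. Of 15 measured histone genes, 15 were at least 2-fold higher in both libraries, and of 21 measured mitotic kinesins and cytokinesis genes, 20 were. Measured means at least 20 CPM in either kind of cell of each library. Among low-scoring cells only 12 G2/M genes, 4 histone genes and 1 kinesin or cytokinesis gene reached 20 CPM in either library, so most passed the floor through the cycling cells and had to come out higher.

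Replication genes of S phase were high as well, with the same limit, since 11 of them reached 20 CPM in low-scoring cells. Of 34 measured genes of a list of 44, 28 and 29 were at least 2-fold higher, with medians of 2.18 and 2.95. Pcna, the sliding clamp of DNA polymerase, stood at 190.4 against 74.7 CPM in the wild-type-labelled library and at 244 against 87.2 in the deficient-labelled one. Mcm5, a subunit of the replicative helicase, stood at 58.2 against 10.1 CPM and at 93.7 against 11.6. The cell cycle inhibitor Cdkn1a was also higher, at 153 against 73.7 CPM and at 199.9 against 91.2. Without cells above 60000 UMIs, the log2 ratio of Cdkn1a in the deficient-labelled library was -0.050.

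To count phases cell by cell, 5000 UMIs were drawn from each cell, and 78 and 38 cycling cells were deep enough. In the wild-type-labelled library 43 of 78 cycling cells (55.1%, exact binomial interval 43.4 to 66.4) exceeded the 95th percentile of the low-scoring cells for both the S-phase list and the G2/M list without the choosing genes. Another 35 exceeded it for G2/M alone. In the deficient-labelled library 28 of 38 (73.7%, 56.9 to 86.6) exceeded both limits, 9 exceeded G2/M alone and 1 exceeded S phase alone. Because the low-scoring cells were picked for few transcripts of the 5 genes, the G2/M limit separates cycling from other cells and not G2 and M from S phase. The S-phase transcripts of most of these cells go against reading the score as G2 and M alone, so they are called cycling cells. A cycling cell had a median of 28 and 29.5 UMIs of the G2/M list per 5000, against 4 and 5 in low-scoring cells. It had a median of 10 and 13 UMIs of the S-phase list, against 4 and 4. Cells above the S-phase limit were the larger ones, with medians of 55624 and 63771 UMIs against 42469 and 47025 in the other cycling cells.

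**Figure D2:**
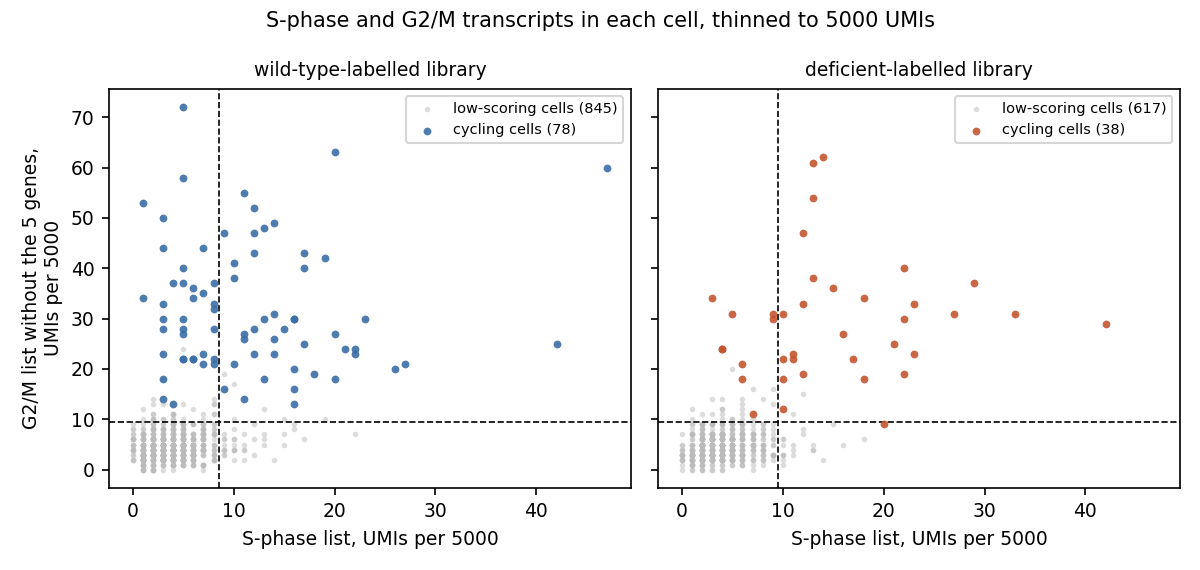
UMIs of the G2/M list without the 5 choosing genes (vertical) against UMIs of the S-phase list (horizontal) per 5000 UMIs of each cell, for low-scoring cells (grey, 845 and 617) and cycling cells (coloured, 78 and 38). Dashed lines mark the 95th percentile of low-scoring cells on each axis; the cycling cells lie above the G2/M limit except for 1 deficient-labelled cell, on both sides of the S-phase limit.

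Many genes of the G2 and M phases share a short promoter letter pattern, the cell cycle genes homology region (CHR, TTTGAA), which the MuvB complexes use to silence them in resting cells and to switch them on before mitosis. It often stands near CCAAT boxes, where the NF-Y factor binds. Both patterns were searched on both strands of RefSeq promoters of the GRCm38.p6 build, from 250 bases before to 50 after each start, and the 2 patterns do not overlap one another. TTTGAA was in 34 of 52 promoters of the G2/M list (65.4%), in 5 of 35 promoters of the S-phase list (14.3%) and in 17.9% of all 32851 promoters. CCAAT was in 39 of 52, 23 of 35 and 37.4% of them. Among the non-cycle genes higher in cycling cells of both libraries, described below, TTTGAA was in 41 of 238 promoters (17.2%), beside 11.2% of the 5445 promoters of the genes tested. CCAAT was in 44.96% of the former and 35.6% of the latter. A match describes the sequence only. Of the 5 choosing genes, 4 held TTTGAA and 0 matches were found in the Birc5 window. The 130 bases before and 20 after the start are printed for those 4 genes, since these are the transcripts that define the cells. Capitals mark TTTGAA or TTCAAA (its other strand) and CCAAT or ATTGG (its other strand).
Cdk1 (chr10:69352893-69353042, minus strand): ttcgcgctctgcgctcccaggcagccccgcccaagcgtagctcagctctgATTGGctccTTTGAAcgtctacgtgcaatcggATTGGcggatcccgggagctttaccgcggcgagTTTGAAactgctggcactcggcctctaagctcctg
Top2a (chr11:99024170-99024319, minus strand): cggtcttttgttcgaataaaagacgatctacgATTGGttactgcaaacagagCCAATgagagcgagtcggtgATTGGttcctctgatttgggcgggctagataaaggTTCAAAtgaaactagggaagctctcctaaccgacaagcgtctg
Ube2c (chr2:164769799-164769948, plus strand): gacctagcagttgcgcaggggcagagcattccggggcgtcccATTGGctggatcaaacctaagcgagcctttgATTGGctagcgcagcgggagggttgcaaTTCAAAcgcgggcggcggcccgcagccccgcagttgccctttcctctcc
Mki67 (chr7:135716360-135716509, minus strand): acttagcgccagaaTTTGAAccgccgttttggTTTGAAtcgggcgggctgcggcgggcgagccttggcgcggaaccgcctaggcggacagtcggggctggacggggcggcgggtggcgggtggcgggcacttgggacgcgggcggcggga
In the Cdk1, Top2a and Ube2c windows the match nearest the start began 15, 23 and 29 bases before it, with CCAAT boxes farther upstream, whereas the Mki67 slice held a pair of TTTGAA matches and no CCAAT. The full Mki67 window held 3 CCAAT matches, all outside the printed slice.

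Outside the cell cycle, the cycling cells were compared with low-scoring cells on 5317 genes with at least 20 CPM in either group in each library, after leaving out 302 cell cycle genes. A gene was counted when it was at least 2-fold apart on the log2(CPM + 1) scale, which understates the ratios of low genes. In the wild-type-labelled library 292 genes were higher (5.49%) and 126 lower (2.37%). In the deficient-labelled library 399 were higher (7.5%) and 98 lower (1.84%). In both libraries 239 genes were higher (4.5%) and 55 lower (1.03%), and 0 were 2-fold apart in opposite directions. A gene under 20 CPM in low-scoring cells passed the floor only through the cycling cells and had to come out higher. One under 20 CPM in cycling cells had to come out lower, so these counts are a description. The shared genes were 81.8% of the wild-type-labelled and 59.9% of the deficient-labelled higher genes, and 43.7% and 56.1% of the lower ones. The median of all these genes was 0.025 and 0.067. The split depended on scaling: TMM scaling lowered the ratios by 0.16 and 0.30 (log2), giving 148 higher and 113 lower genes, 56.7% higher in place of 81.3%; median ratio size factors gave 166 and 103 (61.7% higher). Against deep low-scoring cells, 76 genes were higher and 18 lower in both libraries. Of the 239 higher genes 72 were again 2-fold higher and 232 had the same sign in both libraries; of the 55 lower genes 13 and 54 did.

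**Figure D3:**
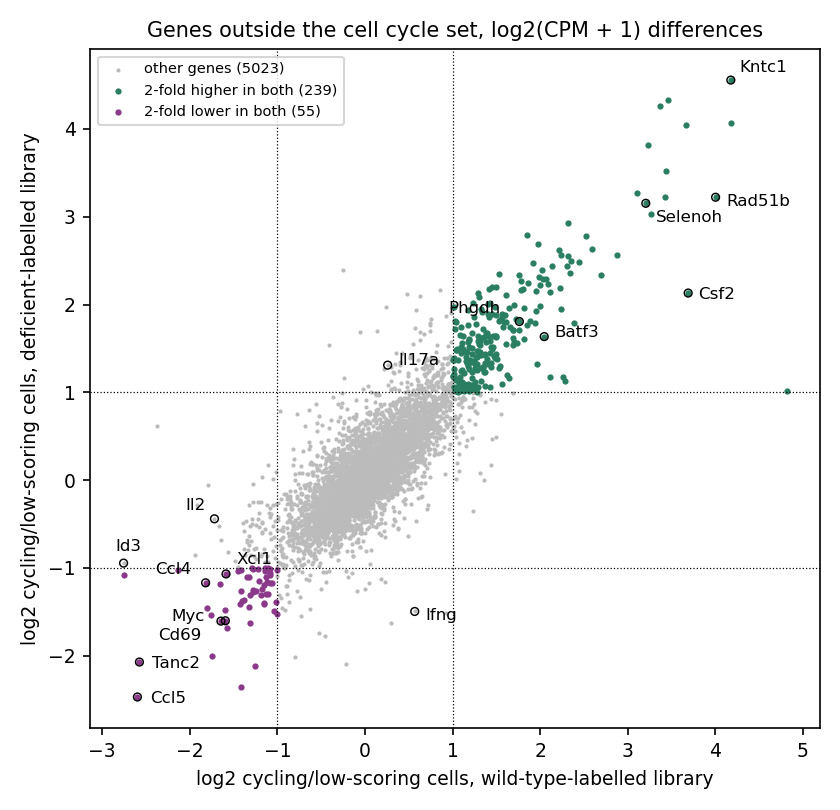
Log2 difference between cycling and low-scoring cells of 5317 genes outside the cell cycle set, deficient-labelled library (vertical) against wild-type-labelled library (horizontal); dotted lines mark 2-fold. The 239 genes higher in both (green) and 55 lower in both (purple) lie in opposite corners, and Il17a, Il2, Ifng and Id3 lie outside both corners. Of these, Il17a and Il2 have the same sign in both libraries.

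Among the genes outside the cell cycle lists with the highest ratios in both libraries, several act on chromosomes. They are given as a description, since they were ranked on the same cells. Kntc1 and Zwilch, subunits of the complex that brings dynein to unattached kinetochores, stood at 29.0 against 0.657 CPM and 24.4 against 1.31 CPM in the wild-type-labelled library. In the deficient-labelled library they stood at 30.7 against 0.346 CPM and 37.1 against 0.8996 CPM. Their partner Spdl1 stood at 37.9 against 1.15 CPM and at 36.7 against 1.25. The kinetochore protein genes Pmf1 and Knstrn had log2 ratios of 3.23 and 3.27 in the wild-type-labelled library and of 3.82 and 3.03 in the deficient-labelled one. DNA repair and replication genes were also among them. Rad51b stood at 64.3 against 3.07 CPM and at 104 against 10.3, and the helicase gene Brip1 at 25.1 against 1.53 and at 54.0 against 1.87. Atad5, which unloads the replication clamp, stood at 27.8 against 2.35 CPM and at 38.0 against 3.04. The nucleolar selenoprotein gene Selenoh stood at 215 against 22.4 CPM and at 193 against 20.8. Lockd, a noncoding RNA beside the cell cycle inhibitor gene Cdkn1b, stood at 83.6 against 6.90 CPM and at 77.3 against 7.40, while Cdkn1b stood at 19.1 against 9.91 and at 19.0 against 9.69. Mns1 had log2 ratios of 3.44 and 3.52. The lowest log2 ratio of these named genes, Cdkn1b aside, over all settings that could change it was 1.87, for Selenoh in the wild-type-labelled library against deep low-scoring cells.

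The genes lower in cycling cells of both libraries included several that T cells switch on soon after stimulation. Myc, the growth transcription factor, stood at 114 CPM in wild-type-labelled cycling cells against 345 in low-scoring cells, and at 109.7 against 335 in the deficient-labelled library. The low-scoring level was 3.04-fold (2.77 to 3.34) and 3.05-fold (2.69 to 3.48) higher. Cd69, an early activation receptor, stood at 173 against 543 CPM and at 221 against 673. Slamf7, an adhesion receptor of activated lymphocytes, stood at 50.7 against 153 CPM and at 136 against 439. The AP-1 subunit gene Fosb stood at 5.80 against 21.96 CPM and at 8.64 against 26.8, on few transcripts; against deep low-scoring cells its wild-type-labelled log2 ratio was 0.48. The histone demethylase gene Kdm5b stood at 38.2 against 96.3 CPM and at 18.1 against 58.1. Tanc2 and Fgf13 stood at 3.38 against 25.1 CPM and 17.6 against 61.6 CPM in the wild-type-labelled library, and at 9.07 against 41.3 CPM and 36.3 against 148 CPM in the deficient-labelled one. Ifi203, Cdk5r1, Cdk8 and Cmss1 ranged from -1.81 to -1.33 in both libraries. With deep low-scoring cells as reference Cdk8 stood at -0.27 and -0.20 and Cmss1 at -0.36 and -0.35, and Ifi203 at -0.62 and -0.21, all short of 2-fold. Cdk5r1 stood at -0.80 and -1.23, Cd69 at -0.99 and -1.32, and Myc at -1.04 and -1.33. The part of depth in these differences was not tested.

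An early activation list (41 genes, 34 measured) had 9 and 7 genes at least 2-fold lower and 1 and 2 higher, with medians of -0.47 and -0.52. The shares over all genes tested were 2.37% and 1.84% lower and 5.49% and 7.5% higher. Fosb, Egr1, Myc, Cd69, Spry1 and Tnfaip3 of this list were lower in both libraries, beside 1.03% of all genes tested. Egr1, an immediate early transcription factor, stood at 54.6 against 126 CPM and at 35.4 against 89.1. Tnfaip3, which restrains NF-κB signalling, stood at 46.4 against 114 CPM and at 63.5 against 152. The gene of this list that was higher in both was the AP-1 partner gene Batf3, at 197 against 46.9 CPM and at 35.4 against 10.7. Against deep low-scoring cells the medians were -0.17 and -0.39. Batf3 had log2 ratios of 0.70 and 0.0059, Egr1 of -0.60 and -0.94, and Tnfaip3 of -0.68 and -0.95.

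Among housekeeping lists, ribosome biogenesis lay mostly below 0 and oxidative phosphorylation mostly above 0, both with small medians. Ribosome biogenesis genes, which act in the nucleolus, lay below 0 in 33 and 34 of 35, with medians of -0.39 and -0.40; 1 and 0 genes passed 2-fold. The RNA helicase gene Ddx21 stood at 498 against 994 CPM and at 572 against 1088. Oxidative phosphorylation genes lay above 0 in 33 of 35 in each library, with medians of 0.55 and 0.56, and Ndufv1, a complex I subunit, was at 72.5 against 29.7 CPM and at 64.3 against 25.05. Proteasome genes lay above 0 in 30 and 27 of 31, with medians of 0.27 and 0.19, but the deficient-labelled median was -0.11 after TMM scaling. Genes of actin and the cell cortex had medians of 0.43 and 0.67. In both libraries 6 of 30 were 2-fold higher, beside 4.5% of all genes tested: Actb, Actg1, Tpm4, Coro1a, Flna and Lgals1. Galectin-1 (Lgals1) stood at 1665 against 606 CPM and at 1784 against 621. Against deep low-scoring cells Lgals1 had log2 ratios of 0.46 and 0.70, Ndufv1 of 0.93 and 0.49, and Ddx21 of -0.52 and -0.72. Ribosome biogenesis, oxidative phosphorylation and actin lists kept the sign of their medians under TMM scaling (-0.56 and -0.70, 0.38 and 0.25, 0.27 and 0.36) and against deep low-scoring cells (-0.22 and -0.35, 0.35 and 0.40, 0.11 and 0.40). Splicing factors (0.047 and -0.0048) and nucleotide synthesis genes (-0.027 and 0.019) had medians near that of all genes.

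Within other lists, a few metabolic and immune genes were at least 2-fold higher in both libraries, beside 4.5% of all genes tested. They were 1 of 21 measured amino acid supply and ATF4 genes (Phgdh) and 3 of 23 glycolysis and hypoxia genes. They were also 2 of 18 MHC class I presentation genes (Psmb8 and Psmb9) and 1 of 19 growth signalling receptor genes (Tnfrsf18). Phgdh, the first enzyme of serine synthesis, stood at 436 against 128 CPM and at 211 against 59.5. Glycolytic Eno1 stood at 294 against 103 CPM and at 177 against 65.1, and Tpi1 at 293 against 113 and at 174 against 68.3. The glycolysis list itself had medians of 0.28 and 0.058, the latter -0.24 after TMM scaling. Ebp, an enzyme of late cholesterol synthesis, stood at 71.8 against 21.6 CPM and at 82.5 against 24.4. It was the only 1 of 15 measured cholesterol and fatty acid genes higher in both libraries, and 10 and 8 of the 15 lay below 0, with medians of -0.42 and -0.18. The immunoproteasome subunits Psmb8 and Psmb9 were 2.04-fold and 2.19-fold higher in the wild-type-labelled library and 3.31-fold and 3.19-fold higher in the deficient-labelled one. Tnfrsf18, the costimulatory receptor GITR, stood at 240.1 against 117 CPM and at 183 against 82.3. With deep low-scoring cells as reference Ebp had log2 ratios of 1.02 and 1.65 and Phgdh of 1.11 and 0.82, while Eno1, Tpi1 and Tnfrsf18 lay between 0.28 and 0.72. Psmb8 and Psmb9 then had 0.31 and 0.59 in the wild-type-labelled library and 1.13 and 1.27 in the deficient-labelled one.

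**Figure D4:**
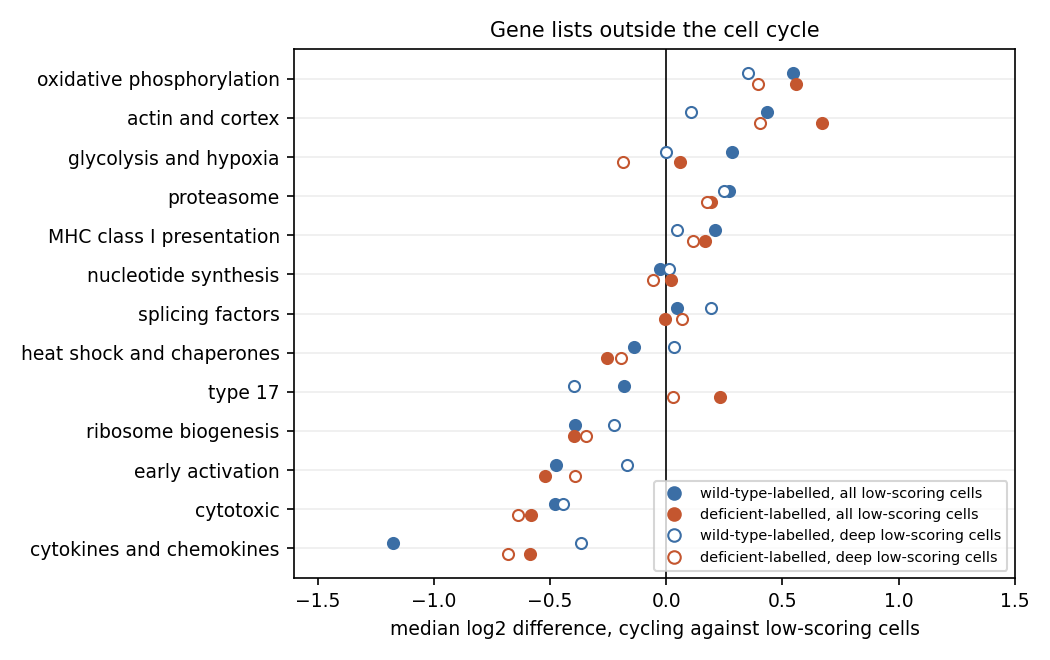
Median log2 difference between cycling and low-scoring cells over the measured genes of 13 lists, in the wild-type-labelled (blue) and deficient-labelled (orange) libraries; filled points use all low-scoring cells and open points the deep ones. Oxidative phosphorylation lies right of 0 and ribosome biogenesis, early activation, cytotoxic and cytokine lists lie left of 0 for all 4 points.

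The cycling cells carried the type 17 cytokines. Il17a, the hallmark cytokine (chr1:20730905-20734496, mm10), stood at 12930 CPM in wild-type-labelled cycling cells against 10805 in low-scoring cells, and at 7619 against 3073 in the deficient-labelled library. The fold was 1.20 (1.19 to 1.21) in the former and 2.48 (2.44 to 2.52) in the latter, where 3 cells held 35.3% of the cycling cells' Il17a UMIs. Without the top 3 cells of each library the levels in cycling cells were 11505 and 5435 CPM. Its neighbour Il17f stood at 7212 against 8632 CPM and at 4528 against 3943. Against deep low-scoring cells its log2 ratio was -0.13 for the wild-type label and 1.27 for the deficient label. Cell by cell, 61 of 78 wild-type-labelled cycling cells held at least 5 Il17a UMIs per 5000 (78.2%, 67.4 to 86.8), against 512 of 845 low-scoring cells (60.6%, 57.2 to 63.9). In the deficient-labelled library it was 20 of 38 (52.6%, 35.8 to 69.0) against 142 of 617 (23.01%, 19.8 to 26.5). The share of Il17a-rich cells was higher among cycling cells in both libraries, and these intervals do not overlap. Within Il17a-rich cells the medians were 69 against 68.5 Il17a UMIs per 5000 in the wild-type-labelled library and 66 against 55 in the deficient-labelled one. Over Il17a-rich cells alone, the log2 ratios of Il17a were -0.065 and 0.074. Among deep low-scoring cells 41 of 51 (80.4%, 66.9 to 90.2) and 9 of 28 (32.1%, 15.9 to 52.4) were Il17a-rich, shares whose intervals overlap those of the cycling cells in both libraries. Whether depth accounts for part of the difference in shares was not tested.

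Cells were also sorted by both Il17a and Ifng. Of the 78 wild-type-labelled cycling cells, 57 were rich in Il17a alone, 3 in Ifng alone, 4 in both and 14 in neither, at 5 or more UMIs per 5000. Of the 38 deficient-labelled ones, 15 were rich in Il17a alone, 11 in Ifng alone, 5 in both and 7 in neither. Among 617 deficient-labelled low-scoring cells these numbers were 113, 239, 29 and 236, so Ifng alone was the larger class there and Il17a alone the larger among cycling cells. Within the wild-type-labelled cycling cells, 36 of 43 above the S-phase limit were Il17a-rich (83.7%, 69.3 to 93.2) and 25 of 35 at or below it (71.4%, 53.7 to 85.4). Il2-rich cells were 15 of 43 (34.9%, 21.0 to 50.9) and 19 of 35 (54.3%, 36.7 to 71.2). These are cells of 1 library, and the difference was not tested.

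Most cytokine and chemokine genes took a smaller share of the transcripts of cycling cells. Of 19 measured genes of a list of 31, which holds neither Il17a nor Il17f, 10 and 7 were at least 2-fold lower and 3 and 3 higher, with medians of -1.18 and -0.58 (-0.37 and -0.68 against deep low-scoring cells). The shares over all genes tested were 2.37% and 1.84% lower and 5.49% and 7.5% higher. Together the 31 genes held 1.09% of the UMIs of wild-type-labelled cycling cells against 2.66% in low-scoring cells, and 4.995% against 9.97% in the deficient-labelled library. Ccl4, a chemokine of activated CD8 cells, stood at 2107 against 7440 CPM in the wild-type-labelled library and at 17371 against 39062 in the deficient-labelled one. The low-scoring level was 3.53-fold (3.46 to 3.61) and 2.25-fold (2.23 to 2.27) higher. Ccl3, a close relative, stood at 371 against 902 CPM and at 3986 against 8021. Xcl1, which attracts cross-presenting dendritic cells, stood at 2305 against 6925 CPM and at 15104 against 31664. Ccl5 stood at 3.87 against 28.5 CPM and at 20.3 against 117. Ccl4-rich cells were 27 of 78 (34.6%, 24.2 to 46.2) against 58.2% (54.8 to 61.6), and 28 of 38 (73.7%, 56.9 to 86.6) against 84.9% (81.9 to 87.7). Xcl1-rich cells were 20.5% (12.2 to 31.2) against 37.6% (34.4 to 41.0) in the wild-type-labelled library, and 81.6% against 81.5% in the deficient-labelled one. There the Xcl1-rich cycling cells held fewer Xcl1 UMIs, a median of 69 against 172 per 5000. Of the deep low-scoring cells, 54.9% and 96.4% were Ccl4-rich and 41.2% and 100% Xcl1-rich. Against deep low-scoring cells the log2 ratios were -1.50 and -1.03 for Ccl4, -1.17 and -1.08 for Ccl3, and -1.54 and -0.84 for Xcl1. The cytotoxic list had medians of -0.48 and -0.58 over 17 measured genes; granzyme B (Gzmb) stood at 85.5 against 82.7 CPM and at 323 against 729. Without the top 3 cycling cells of each library Gzmb stood at 19.3 and 82.4 CPM. In the deficient-labelled library, over Il17a-rich cells alone, the Ccl3 log2 ratio was 0.028.

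**Figure D5:**
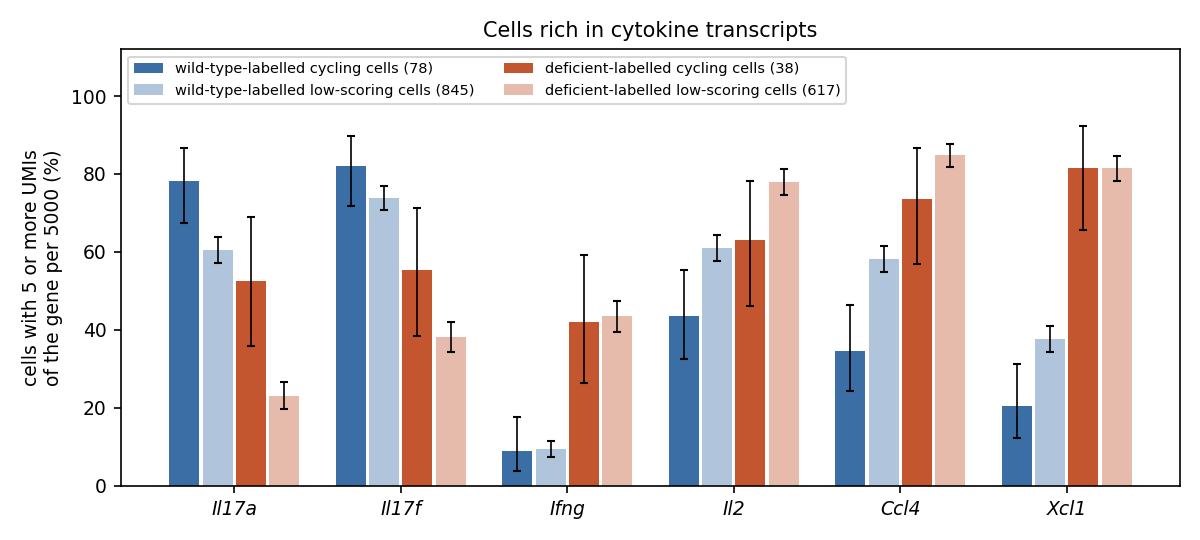
Percentage of cells, thinned to 5000 UMIs, with 5 or more UMIs of each cytokine gene, in cycling cells (dark, 78 and 38) and low-scoring cells (light, 845 and 617) of each library; bars start at 0 and whiskers are 95% exact binomial intervals. Il17a-rich cells are more frequent among cycling cells in both libraries, at 78.2% against 60.6% and 52.6% against 23.01%.

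Il2 and Ifng were less alike in the 2 libraries. Il2, the T-cell growth factor, stood at 2613 against 8604 CPM in wild-type-labelled cells, a 3.29-fold (3.23 to 3.36) higher level in low-scoring cells, and at 7445 against 10100.0 in the deficient-labelled library. Il2-rich cells were 43.6% (32.4 to 55.3) of cycling against 61.1% (57.7 to 64.4) of low-scoring cells, and 63.2% (46.0 to 78.2) against 78.0% (74.5 to 81.2). Deep low-scoring cells were Il2-rich in 54.9% (40.3 to 68.9) and 96.4% (81.7 to 99.9), and against them Il2 had log2 ratios of -0.88 and -0.53, both short of 2-fold. Ifng stood at 2740 against 7726 CPM in the deficient-labelled library, where Ifng-rich cells made up 42.1% (26.3 to 59.2) of cycling and 43.4% (39.5 to 47.4) of low-scoring cells. Of the deep low-scoring cells there, 22 of 28 were Ifng-rich (78.6%, 59.0 to 91.7), and the log2 ratio against them was -1.81. The Ifng-rich cycling cells held a median of 19 Ifng UMIs per 5000, against 52.5 in Ifng-rich low-scoring cells. In the wild-type-labelled library Ifng stood at 1560.0 against 1052 CPM, but 3 cells held 91.9% of the cycling cells' Ifng UMIs and without them the level was 133 CPM. Ifng-rich cells were 8.97% and 9.35% there. Whether the libraries differ in these contrasts was not tested.

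Some large ratios rested on very few cells. Csf2, the granulocyte-macrophage growth factor gene, stood at 314 against 23.4 CPM and at 85.5 against 18.8, with 71.1% and 85.4% of the cycling cells' UMIs in 1 cell each; without the top 3 cells of each library the levels were 45.5 and 3.87 CPM. Il9 stood at 299 against 30.2 CPM in the wild-type-labelled library, with 75.6% in 1 cell, and at 23.9 without the top 3. Penk, the enkephalin precursor, stood at 55.8 against 10.3 CPM and at 583 against 98.5, and without the top 3 cells at 17.1 and 174. The transcription factor Maf was spread more widely, at 57.0 against 20.9 CPM and at 34.1 against 10.2, and at 31.0 and 22.3 without the top 3 cells. Its log2 ratios against deep low-scoring cells were -0.40 and 2.76. Over the whole type 17 list (27 genes, 18 measured) 2 and 4 genes were 2-fold higher and 1 and 4 lower, with medians of -0.18 and 0.23, the latter -0.074 after TMM scaling. The shares over all genes tested were 5.49% and 7.5% higher and 2.37% and 1.84% lower.

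Between the libraries, 215 of 5782 non-cycle genes were at least 2-fold higher in deficient-labelled than in wild-type-labelled cycling cells (3.72%) and 133 lower (2.3%). Among low-scoring cells 128 of 5327 were higher (2.4%) and 121 lower (2.27%). The cycling contrast rested on 41 deficient-labelled and 79 wild-type-labelled cells, the low-scoring one on 625 and 857. The shares are therefore not like for like, and the part of cell number was not tested. TMM scaling changed the cycling count to 171 and 150, and the mean of per-cell values to 472 and 166. The chemokines were higher: Ccl4 8.25-fold (8.06 to 8.44), Ccl3 10.7-fold (10.2 to 11.3) and Xcl1 6.55-fold (6.41 to 6.70), and their log2 ratios in cycling cells (3.04, 3.42 and 2.71) stood beside 2.39, 3.15 and 2.19 in low-scoring cells. Il17a had log2 ratios of -0.76 in cycling and -1.81 in low-scoring cells. Ifng was higher by 0.81 in cycling cells, on a wild-type-labelled level held by 3 cells, and by 2.88 in low-scoring cells. Jaml, an adhesion molecule gene, stood at 253 against 15.9 CPM in cycling cells. Spry1, a feedback inhibitor of receptor tyrosine kinase signalling, stood at 70.8 against 6.04 CPM. Ccl1 stood at 751 against 4.59 CPM, with 74.9% of the former in 3 cells.

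On the lower side, Batf3 stood at 35.4 CPM in deficient-labelled against 197 in wild-type-labelled cycling cells. AA467197 stood at 35.8 against 405 CPM, and Gadd45g, a stress-response gene, at 7.34 against 89.4. Pdpn (podoplanin, a surface glycoprotein) stood at 6.91 against 80.9 CPM. The mitochondrial enzyme gene Pck2 stood at 3.45 against 40.6 CPM, and Scd2, a fatty acid desaturase gene, at 7.77 against 61.1. Ebf1 stood at 4.75 against 94.0 CPM, of which 57.6% lay in 1 wild-type-labelled cell. In low-scoring cells Ebf1 stood at 8.30 against 11.1 CPM. For AA467197, Gadd45g, Pdpn, Pck2 and Scd2, and for Jaml, Spry1 and Ccl1 above, the low-scoring contrast is not given. Whether their differences are particular to cycling cells was not tested. An amino acid supply and ATF4 list had 24 of 25 genes lower, 9 of them by 2-fold, with a median of -0.81 in cycling and -0.61 in low-scoring cells. The share 2-fold lower over all genes tested in cycling cells was 2.3%. Phgdh was among the lower genes of this list, at 211 against 436 CPM.

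The G2/M genes were close between the libraries' cycling cells, as a description, since the same score chose both. The median of the G2/M list was -0.085, with 0 of 48 genes 2-fold apart, and Ube2c had the log2 ratio -0.80. Of 15 cyclin and CDK genes 1 was 2-fold higher and 2 were lower in the deficient-labelled cycling cells. Of 17 histone genes 0 were higher and 2 lower. The shares over non-cycle genes were 3.72% higher and 2.3% lower. S-phase genes were higher in the deficient-labelled cycling cells, above 0 in 37 of 38 with a median of 0.45 (0.36 after TMM scaling); in low-scoring cells the median was -0.025 over 11 genes. Cyclin E2 (Ccne2), which acts at the start of S phase, stood at 47.9 against 12.6 CPM. In the deficient-labelled cells 45.9% of its UMIs lay in 3 cells, and without the top 3 of each library the levels were 29.4 and 9.57.

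The identity of the cycling cells as CD8 T cells was visible in their markers. All 8 markers of the CD8 T-cell list were above 100 CPM in cycling cells of both libraries, with sums of 2591 and 2768 CPM against 2403 and 2232 in low-scoring cells. Cd8a stood at 198 and 269 CPM in cycling cells and Cd8b1 at 323 and 330, while the other genes of this list mark T cells in general. CD4 T-cell markers summed to 6.52 and 2.16 CPM. Of the B-cell markers, Ms4a1, Cd22 and Pax5 were at 0 in the cycling cells of both libraries, and the sums over the list were 166 and 117 CPM against 71.7 and 66.6. Ebf1 gave 94.0 of the 166 CPM and Cd74 85.1 of the 117 CPM. Of 12 myeloid markers 6 and 7 were at 0, with Cst3 at 191 and 208 CPM making up nearly all of sums of 206 and 228, against 130 and 87.4 in low-scoring cells. Markers of dendritic cells summed to 2.42 and 1.30 CPM, and those of NK and innate-like cells to 3.14 and 3.02. The part of these transcripts in the differences above was not tested.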

How the data were processed

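10x 3' data of 2 libraries were read as deposited UMI counts per gene and barcode, made by the authors with Cell Ranger 7.0.0, per the file headers, on mm10, per the submitters' processing notes. The sources used here do not give the annotation or the handling of intron reads. Rows of sample tags entered no total. Kept barcodes showed 500 genes or more, with no more than 10% of UMIs mitochondrial, and the score was computed on all gene UMIs. UMIs were summed over the cells of a group and scaled to CPM, with a pseudocount of 1, a floor of 20 CPM and a 2-fold rule. For shares, each cell was thinned to 5000 UMIs, leaving out shallower cells. The size rule was tried on simulated counts with counting error only and no spread between cells. At 2.5-fold it called 25 of 25 higher and 24 of 25 lower genes, and it called 0 of 4646 unchanged genes. Because the spread between cells was left out, the simulation cannot show how the rule treats genes held by few cells.

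Doublets were called with Scrublet in scanpy 1.11.5 at an expected rate of 5% and kept in the main values. Python 3.11.15, NumPy 2.4.6, SciPy 1.17.1, pandas 2.3.3, matplotlib 3.10.9, and edgeR 4.0.16 in R 4.3.3 (TMM factors only) were used. Coordinates are from GENCODE M21, promoters from RefSeq. Named genes were the 5 choosing genes, a set of cycle and effector genes, the 12 most different genes in each direction outside the cell cycle set with the same direction in both libraries, the 10 in each direction between the libraries' cycling cells, and the 2 highest and lowest of each list; a few of these are not reported here. Members and lists were chosen with earlier results of these data known. The wild-type and deficient-labelled libraries held 1 sample each, so no test was run.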

Additional observations from a re-analysis of the deposited data

Results flagged for a closer look

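For 2 flagged genes, Ccl1 and Il24, the cycling cells of the libraries lay on opposite sides of the low-scoring cells. Other named genes did so too, among them Ifng, Gzmb and Il17f, with smaller ratios in the wild-type-labelled library. The log2 ratio of Ccl1, a chemokine gene, was -2.37 for the wild-type label and 0.61 for the deficient label, a difference of 2.99. The log2 ratio of Il24 was 0.93 for the wild-type label and -1.51 for the deficient label, a difference of -2.44. Few cells held these UMIs: the top 3 cycling cells held 73.7% and 74.9% of Ccl1 and 64.3% and 100.0% of Il24. These differences were not tested, and each library is 1 sample.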

How the results depend on the processing

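Of 25 settings tried, 4 were chosen after seeing the data (deep low-scoring cells, Il17a-rich cells only, no cells under 5000 UMIs, and no top 3 cells of a gene). No paired analysis was possible because each genotype has 1 library. Cycling cells were 5.89% and 4.09% of kept cells at a score of 10 or more, and 5.48% and 3.23% without cells above 60000 UMIs. Genes higher and lower in cycling cells of both libraries numbered 148 and 113 with TMM scaling, 630 and 125 with no floor, 109 and 32 at a floor of 50 CPM, 644 and 226 at 1.5-fold, 131 and 33 without cells above 60000 UMIs, and 76 and 18 against deep low-scoring cells. The lower genes numbered 34 at a score of 3, 103 with median ratio size factors and 33 with a pseudocount of 5. Genes higher and lower in deficient-labelled cycling cells numbered 728 and 651 with no floor, 120 and 55 at 50 CPM, and 652 and 342 at 1.5-fold. The higher ones numbered 472 with means of per-cell values, and the lower ones 231 without cells above 60000 UMIs. Apart from changes built into a floor, a fold or a smaller set of cells, the cause was not tested.

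At a score of 3, the log2 ratios that changed sign were Ccl1 2.93, Ccl5 0.89 in the wild-type-labelled library, and Il24 0.23 in the deficient-labelled library. At a score of 10, the log2 ratios that changed sign were Ccl20 -0.20 in the wild-type-labelled library, and Il9 -0.35, Gzmc -1.57 in the deficient-labelled library, and Csf2 0.018, Gzmc 0.45 between the libraries. Without cells above 60000 UMIs, the log2 ratios that changed sign were Cdkn1a -0.050, Csf2 -0.65, Il9 -1.49, Penk -0.12, Ccl20 -5.41, Gzmc -4.45 in the deficient-labelled library, and Tnf -0.14, Il23r -0.096, Ccl5 -0.39, the cytokine list median -0.050 between the libraries. Without Ifng-rich cells, the log2 ratios that changed sign were Il9 -0.63 in the deficient-labelled library, and Tnf -0.40 between the libraries. Against deep low-scoring cells, the log2 ratios that changed sign were Il22 0.31, Maf -0.40, Fosb 0.48, Ccl1 0.83, Lef1 -0.031 in the wild-type-labelled library, and Csf2 -0.37, Mmp10 0.31, Gzmc -0.64 in the deficient-labelled library. Over Il17a-rich cells, the log2 ratios that changed sign were Ccl20 -1.12 in the wild-type-labelled library, and Gzmb 0.039, Ccl3 0.028, Ccl20 -0.51 in the deficient-labelled library. Without the top 3 cells, the log2 ratios that changed sign were Il9 -0.32, Ccl20 -1.61, Gzmc -0.38 in the wild-type-labelled library, and Csf2 -2.02, Il9 -1.45, Pdpn -0.082, Ccl20 -3.56, Gzmc -3.60 in the deficient-labelled library.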
